A study of Arabidopsis thaliana with 9 samples.

Results

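The T-DNA insertion line hac1-1 (SALK_080380) of Arabidopsis thaliana was compared with Col-0 wild type (WT) by RNA sequencing of leaves 12 to 14, taken 49 days after sowing. All genes of the count table that passed a filter on low counts entered the comparison, which left 16560 of 33323 genes. There were 3 hac1-1 and 3 WT libraries, and 3 libraries of a second insertion line in the same gene, hac1-2 (SALK_136314), were kept out of the comparison but shared the estimate of spread. All plants were of the Col-0 ecotype, untreated, with days of 20 h of light and 4 h of dark at a light intensity of 28 µmol photons a second on each square metre. The labels call the hac1-1 and hac1-2 leaves non-senescent and the WT leaves senescent, so genotype and leaf state cannot be told apart. The series text speaks of a single biological replicate, so p-values measure the spread between these libraries only, which may be technical. Each mutant genotype is a single insertion line.

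The product of HAC1 is a histone acetyltransferase related to CBP, and its animal relatives p300 and CBP are co-activators that transcription factors bring to promoters and enhancers. The enzyme transfers acetyl groups to lysines of histone tails, a modification found at active genes. In Arabidopsis, hac1 mutants are known for late flowering with a raised level of the floral repressor FLC, and HAC proteins are known partners of ethylene and salicylic acid signalling. Leaf senescence is the last phase of leaf life, in which photosynthesis is dismantled and nitrogen, sugars and minerals are exported.

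The count tables held 5750097 to 7329298 counts per hac1-1 library, 7117392 to 9461600 per hac1-2 library and 5847562 to 8549215 per WT library. Nuclear ribosomal RNA genes took 13.9 to 20.98% of counts in hac1-1 and 13.01 to 15.7% in WT, with the highest share in hac1-1 replicate 2. Levels are given as CPM, which scales each count by the TMM-adjusted size of its library, and 3 counts in 1 of the 6 libraries correspond to 0.361 to 0.519 CPM, a limit for counting error only. CPM values are not divided by gene length and are compared between libraries, not between genes.

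HAC1 transcripts (AT1G79000, chromosome 1, 29716350 to 29724748, minus strand, TAIR10.1) were counted at 58.5, 72.6 and 63.9 CPM in the hac1-1 libraries, at 150, 132 and 122 CPM in the hac1-2 libraries and at 153, 167 and 146 CPM in the WT libraries. All 3 hac1-1 values lay below all WT values, and reads over the gene as a whole remained. The log2 fold change of hac1-1 against WT was -1.26 (SE 0.12, edgeR quasi-likelihood test, Benjamini-Hochberg adjusted p = 1.2e-08), a level 2.39-fold lower. The senescence protease gene SAG12 (AT5G45890) had 5 counts over the hac1-1 libraries and 6 counts over the WT libraries, too few for a test, so this marker did not separate the leaves by their labelled state.

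AT1G78995, an uncharacterized gene on the same strand just beyond the 3′ end of HAC1 (chromosome 1, 29715072 to 29716255), had 8.49, 13.02 and 11.4 CPM in hac1-1, 39.2, 41.4 and 36.2 CPM in hac1-2, and 27.3, 32.5 and 21.6 CPM in WT. The hac1-1 libraries were the lowest of all 9, without overlap. Its log2 fold change against WT was -1.31 (SE 0.18, edgeR adjusted p = 9.4e-06), close in size to that of HAC1 itself. Among the 10 tested genes nearest to HAC1, 5 on each side, the other gene to pass the test was PSBR (AT1G79040), a photosystem II subunit gene, with a log2 fold change of -0.33 (SE 0.11, edgeR adjusted p = 0.040). PSBR did not pass without WT replicate 1 (adjusted p = 0.148), WT replicate 2 (0.0859), hac1-1 replicate 1 (0.129) or hac1-1 replicate 3 (0.163). LUP1 (AT1G78970), a triterpene synthase gene, had a log2 fold change of -1.66 that did not pass (SE 0.66, edgeR adjusted p = 0.103).

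**Figure D1:**
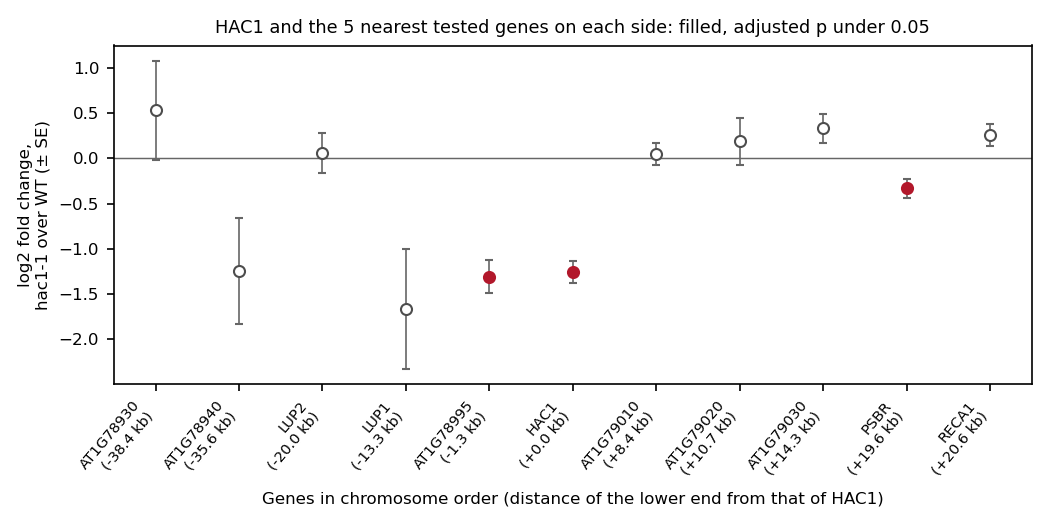
Log2 fold change of hac1-1 against WT (vertical axis, bars are standard errors) for HAC1 and the 5 nearest tested genes on each side, in chromosome order along the horizontal axis. HAC1 (-1.26) and AT1G78995 (-1.31) lie well below 0 with short error bars.

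Across the genome, 2092 genes passed an edgeR adjusted p of 0.05, which is 12.6% of genes tested, with 1510 lower (9.12%) and 582 higher (3.51%) in hac1-1 than in WT. Calls in the gene lists below are to be read beside these shares. The median log2 fold change of all genes tested was 0.02. At least 2-fold differences were counted for 629 of the lower and 129 of the higher genes. The 3 hac1-1 and 3 WT values did not overlap for 4573 genes, 27.6% of genes tested, so a lack of overlap is common. The rankings by fold below took only genes without overlap. A call was counted as stable when it was made with the same sign after each of the 6 single hac1-1 and WT libraries was left out, which held for 916 lower genes (5.53% of genes tested) and 194 higher genes (1.17%), together 6.70%. The count of higher genes was 357 without WT replicate 1. In lists with 1 or 2 higher genes, a higher gene that was not stable was lost when at least 1 single library was left out. Library scaling shifted the split, since without TMM factors 62.4% of calls were lower against 72.2% with them, and the median log2 fold change of all genes was 0.07.

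The largest falls by fold included defence-related genes and genes known from pollen. PR1 (AT2G14610), a pathogenesis-related gene used as a marker of salicylic acid responses, had 0, 1.23 and 0.173 CPM in hac1-1 against 15.3, 11.1 and 19.6 CPM in WT, without overlap. It had 9 counts over the hac1-1 libraries and 335 over the WT libraries, with a log2 fold change of -5.03 (SE 0.55, edgeR adjusted p = 1.5e-07) that was -7.38 without hac1-1 replicate 2. AIG1 (AT1G33960), a GTP-binding protein gene induced by avirulent bacteria, had 2.52, 1.53 and 1.04 CPM in hac1-1 against 28.8, 24.8 and 20.3 CPM in WT. This is a 14.0-fold lower level without overlap (log2 fold change -3.80, SE 0.30, edgeR adjusted p = 6.4e-10). BGAL11 (AT4G35010), a beta-galactosidase gene, had 1.06, 2.60 and 0.864 CPM in hac1-1 against 16.3, 16.6 and 15.1 CPM in WT, a log2 fold change of -3.39 (SE 0.33, edgeR adjusted p = 2.1e-08). AT1G66100, a thionin gene of the antimicrobial peptide class, had 2.52, 1.23 and 1.21 CPM in hac1-1 against 13.7, 16.8 and 10.7 CPM in WT. SAG13 (AT2G29350), a short-chain dehydrogenase gene that rises early in senescing leaves, had 1.46, 1.07 and 3.80 CPM in hac1-1 against 15.4, 17.1 and 15.5 CPM in WT, with a log2 fold change of -2.96 (SE 0.34, edgeR adjusted p = 4.2e-07).

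The falls with the smallest adjusted p had closely spaced replicates. AT1G73600, a methyltransferase gene of chromosome 1 (27669152 to 27673572, plus strand), had 105, 98.3 and 97.0 CPM in hac1-1 against 362, 372 and 349 CPM in WT. Its log2 fold change lay at -1.85 (SE 0.10, edgeR adjusted p = 1.3e-12), and the entry AT1G73602 had nearly the same values, so reads of these entries may have been shared. AT1G66090, which encodes a TIR-NBS protein of the disease resistance class, had 46.2, 52.1 and 43.6 CPM in hac1-1 against 172, 182 and 191 CPM in WT (log2 fold change -1.94, SE 0.11, edgeR adjusted p = 2.8e-12). AT2G27080, of the LEA hydroxyproline-rich glycoprotein family, had 93.8, 82.4 and 88.1 CPM in hac1-1 against 276, 289 and 291 CPM in WT (log2 fold change -1.70, SE 0.10, edgeR adjusted p = 8.4e-12).

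By difference in CPM, the largest falls were in highly expressed genes with moderate folds. RCA (AT2G39730), the Rubisco activase gene, had 3590.0, 3122 and 3643 CPM in hac1-1 against 5814, 4186 and 6027 CPM in WT, a level 1.55-fold lower (log2 fold change -0.63, SE 0.12, edgeR adjusted p = 0.00034). HSPRO2 (AT2G40000), an Arabidopsis ortholog of a sugar beet nematode resistance gene, had 2255, 2496 and 2242 CPM in hac1-1 against 3508, 3386 and 3675 CPM in WT. DIC2 (AT4G24570), a mitochondrial dicarboxylate carrier gene, had 2365, 2246 and 2147 CPM in hac1-1 against 3289.7, 3255 and 3314 CPM in WT. In each of these genes the hac1-1 and WT values did not overlap.

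Rises were fewer than falls. AT5G46295, an uncharacterized protein-coding gene, had 34.4, 24.4 and 31.3 CPM in hac1-1 against 3.40, 5.19 and 5.41 CPM in WT, a 6.41-fold higher level (log2 fold change 2.68, SE 0.22, edgeR adjusted p = 9.2e-10). AT1G16850, also uncharacterized, had 40.2, 55.0 and 37.0 CPM in hac1-1 against 14.3, 17.8 and 9.14 CPM in WT. XERO1 (AT3G50980), a dehydrin gene of the class that protects cells from water loss, had 13.3, 15.3 and 8.30 CPM in hac1-1 against 3.40, 5.19 and 3.01 CPM in WT (log2 fold change 1.69, SE 0.31, edgeR adjusted p = 0.00025). LTP3 (AT5G59320), a lipid transfer protein gene, had 42.7, 36.6 and 34.2 CPM in hac1-1 against 11.6, 13.3 and 12.98 CPM in WT (log2 fold change 1.58, SE 0.15, edgeR adjusted p = 1.4e-08). None of these pairs of groups overlapped, which was a condition of the ranking by fold. GRP7 (AT2G21660), a clock-regulated RNA-binding protein gene, had 4178, 3820.1 and 4309 CPM in hac1-1 against 2839, 2887 and 3065 CPM in WT, among the largest rises in CPM at 1.40-fold (edgeR adjusted p = 0.0011).

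Transcripts known from pollen were counted in the WT leaf libraries and were lower in hac1-1. Pollen is the male gametophyte, and pollen tube walls are built with arabinogalactan proteins, pectin-modifying enzymes and RALF peptides. This list of 52 genes in the count table was written after values of some members had been seen. Of its 21 tested genes, 15 were lower in hac1-1, 14 of them stably, and VLN5 (AT5G57320), a villin gene of the actin cytoskeleton, was higher, not stably, with a median log2 fold change of -2.65. The not called members were EXPA4, AGL30, TUA1, FIM5 and AGL65, and 8 of the 52 genes were at 0 in all 6 libraries. A gene passed the filter on low counts if a single genotype had enough counts. Members near 0 in hac1-1, such as ACA9 below, were thus tested only because they were higher in another genotype. The count of lower members and the median therefore depend on the filter. The summed level of the list was 113, 109 and 126 CPM in hac1-1, 143, 142 and 150 CPM in hac1-2, and 239, 232 and 226 CPM in WT.

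BCP1 (AT1G24520), an arabinogalactan-like gene of pollen and tapetum, had 1.59, 0.919 and 0.864 CPM in hac1-1 against 12.9, 12.6 and 10.2 CPM in WT (log2 fold change -3.35, SE 0.35, edgeR adjusted p = 6.8e-08). PRK2A (AT2G07040), a pollen receptor-like kinase gene, had 1.86, 1.38 and 1.21 CPM in hac1-1 against 16.1, 11.4 and 10.099 CPM in WT (log2 fold change -3.05, SE 0.34, edgeR adjusted p = 1.9e-07). AGP11 (AT3G01700), a pollen arabinogalactan protein gene, had 2.12, 1.99 and 0.864 CPM in hac1-1 against 9.35, 12.8 and 15.03 CPM in WT. The hac1-1 and WT libraries did not overlap for any of these genes, which was a condition of the ranking by fold that picked them. RALFL9 (AT1G61566), which encodes a secreted RALF peptide, had 1.33, 2.45 and 2.07 CPM in hac1-1 against 10.5, 13.3 and 12.7 CPM in WT (log2 fold change -2.65, SE 0.32, edgeR adjusted p = 6.5e-07). ACA9 (AT3G21180), a calcium pump gene of pollen, had 0 counts in the 3 hac1-1 libraries and 59 counts in the WT libraries, a level at least 18.4-fold lower than in WT against a floor of 3 counts over the group.

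Markers of other floral tissues had few or 0 counts. The floral organ genes AP1 (AT1G69120) and AP3 (AT3G54340) had 0 counts in hac1-1 and WT, PI (AT5G20240) had 2 counts in hac1-1 and 0 in WT, and AG (AT4G18960) had 0 counts in hac1-1 and 1 in WT. SEP3 (AT1G24260) had 10 counts in hac1-1 and 20 in WT. SEP1 (AT5G15800), a floral organ MADS gene, had 0.663, 0 and 0 CPM in hac1-1 against 1.56, 1.73 and 1.803 CPM in WT (log2 fold change -2.70, SE 0.87, edgeR adjusted p = 0.0404). Its call was not stable, with adjusted p of 0.0973 to 0.146 in the 5 fits without a single library that lost it, and it did not pass with DESeq2 (0.0577) or without the low-count filter (0.0799). The 10 flower and pollen markers summed to 4.38, 3.06 and 6.05 CPM in hac1-1 and to 29.2, 31.2 and 19.8 CPM in WT, and the 3 tested, BCP1, VGD1 and SEP1, were called lower in hac1-1, 2 of them stably. None of 11 sperm and tapetum genes passed the filter on low counts. In bulk leaves, fewer cells of a type and less RNA per cell cannot be told apart, and whether the pollen transcripts came from leaf cells or from pollen on the leaves was not tested.

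**Figure D2:**
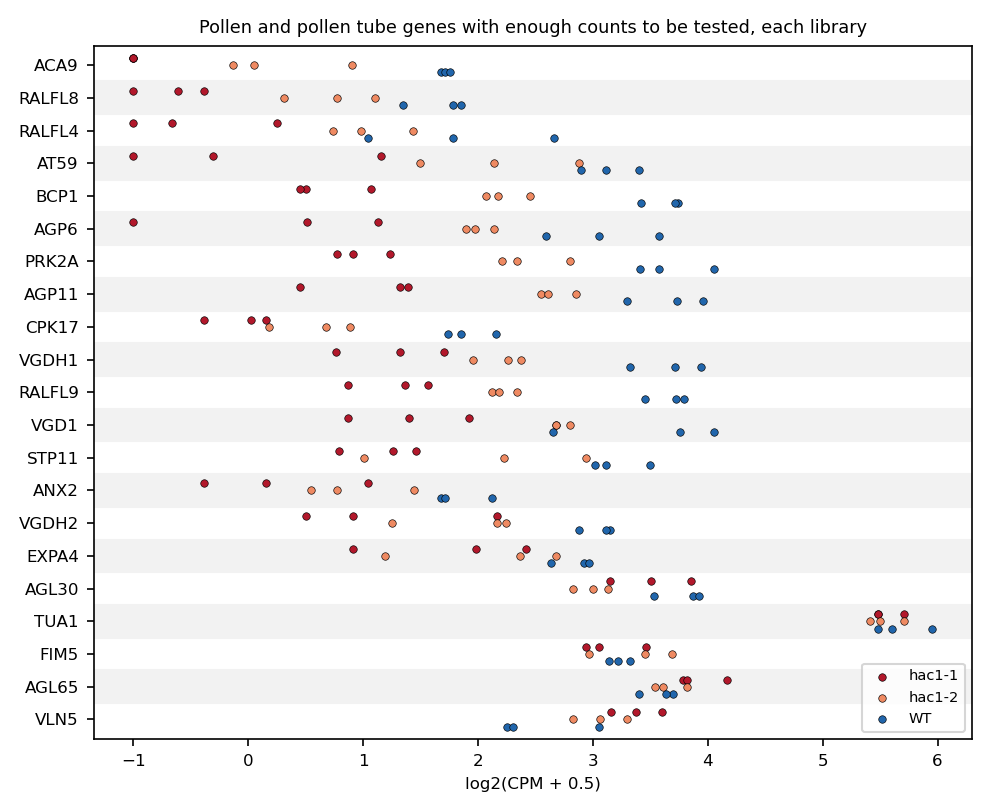
Level of the 21 tested pollen and pollen tube genes in each hac1-1, hac1-2 and WT library, with 1 row per gene and log2(CPM + 0.5) on the horizontal axis. The summed level of the whole list is 109 to 126 CPM in hac1-1 and 226 to 239 CPM in WT, with hac1-2 at 142 to 150 CPM between them.

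Glucosinolates are sulfur-rich defence compounds of the cabbage family that are made from methionine (aliphatic) or tryptophan (indole). Of 26 tested genes of the aliphatic branch, 18 were lower in hac1-1, 15 of them stably, and 1 was higher, with a median log2 fold change of -0.62. MYB29 (AT5G07690), a transcription factor gene that switches on the aliphatic branch, had 4.91, 7.35 and 6.57 CPM in hac1-1 against 25.6, 30.3 and 22.2 CPM in WT. The groups were far apart, with a 4.15-fold lower level in hac1-1 (log2 fold change -2.05, SE 0.21, edgeR adjusted p = 7.2e-08). MYB28 (AT5G61420), the paralogous regulator, had 107, 116 and 111 CPM in hac1-1 against 181, 211 and 142 CPM in WT, a log2 fold change of -0.67 (SE 0.12, edgeR adjusted p = 0.00025).

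Genes called lower in the aliphatic branch included steps from chain elongation to side-chain modification, but not every step was called. Not called were 7 tested genes, among them the sulfotransferase genes SOT17 and SOT18, with log2 fold changes of -0.39 and -0.37. MAM1 (AT5G23010), a methylthioalkylmalate synthase gene of chain elongation, had 324, 361 and 396 CPM in hac1-1 against 694, 813 and 699.6 CPM in WT (log2 fold change -1.03, SE 0.11, edgeR adjusted p = 7.8e-08). CYP79F1 (AT1G16410), which encodes the cytochrome P450 that turns elongated methionine into an aldoxime, had 247, 199.5 and 232 CPM in hac1-1 against 498, 425 and 428 CPM in WT (log2 fold change -0.99, SE 0.11, edgeR adjusted p = 1.6e-07). AOP2 (AT4G03060), a dioxygenase-like gene of side-chain modification that TAIR10.1 lists as a pseudogene, had 67.9, 48.2 and 65.8 CPM in hac1-1 against 146, 143 and 149 CPM in WT. In all of these genes every hac1-1 library was below every WT library. GTR1 (AT3G47960), a glucosinolate importer gene of the plasma membrane, had 67.3, 67.4 and 73.6 CPM in hac1-1 against 135, 162 and 140.1 CPM in WT (log2 fold change -1.07, SE 0.11, edgeR adjusted p = 9.9e-08). The only gene of the branch called higher was IMS2 (AT5G23020), a gene of the same MAM family as MAM1, which had 41.4, 24.8 and 39.4 CPM in hac1-1 against 17.6, 15.8 and 13.5 CPM in WT (log2 fold change 1.18, SE 0.18, edgeR adjusted p = 2.8e-05).

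Of 22 tested genes of indole glucosinolate and camalexin synthesis, 13 were lower in hac1-1, 11 of them stably, and 0 were higher, with a median log2 fold change of -0.53. IGMT1 (AT1G21100), a methyltransferase gene of indole glucosinolate modification, had 5.70, 9.19 and 9.51 CPM in hac1-1 against 44.9, 39.8 and 41.7 CPM in WT (log2 fold change -2.39, SE 0.19, edgeR adjusted p = 5.6e-10). IGMT1 has copies of at least 90% identity in IGMT2 and IGMT4 (AT1G21130), between which reads may be split, and both were called lower too, with log2 fold changes of -2.52 and -0.81. CYP81F2 (AT5G57220), the indole ring hydroxylase gene needed for defence against fungi, had 1.33, 4.59 and 2.77 CPM in hac1-1 against 12.2, 16.8 and 11.7 CPM in WT. MYB51 (AT1G18570), a regulator of the indole branch, had 41.0, 46.9 and 38.5 CPM in hac1-1 against 78.3, 91.8 and 76.7 CPM in WT (log2 fold change -0.96, SE 0.12, edgeR adjusted p = 2.2e-06). The hac1-1 values of these genes were all below the WT values.

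**Figure D3:**
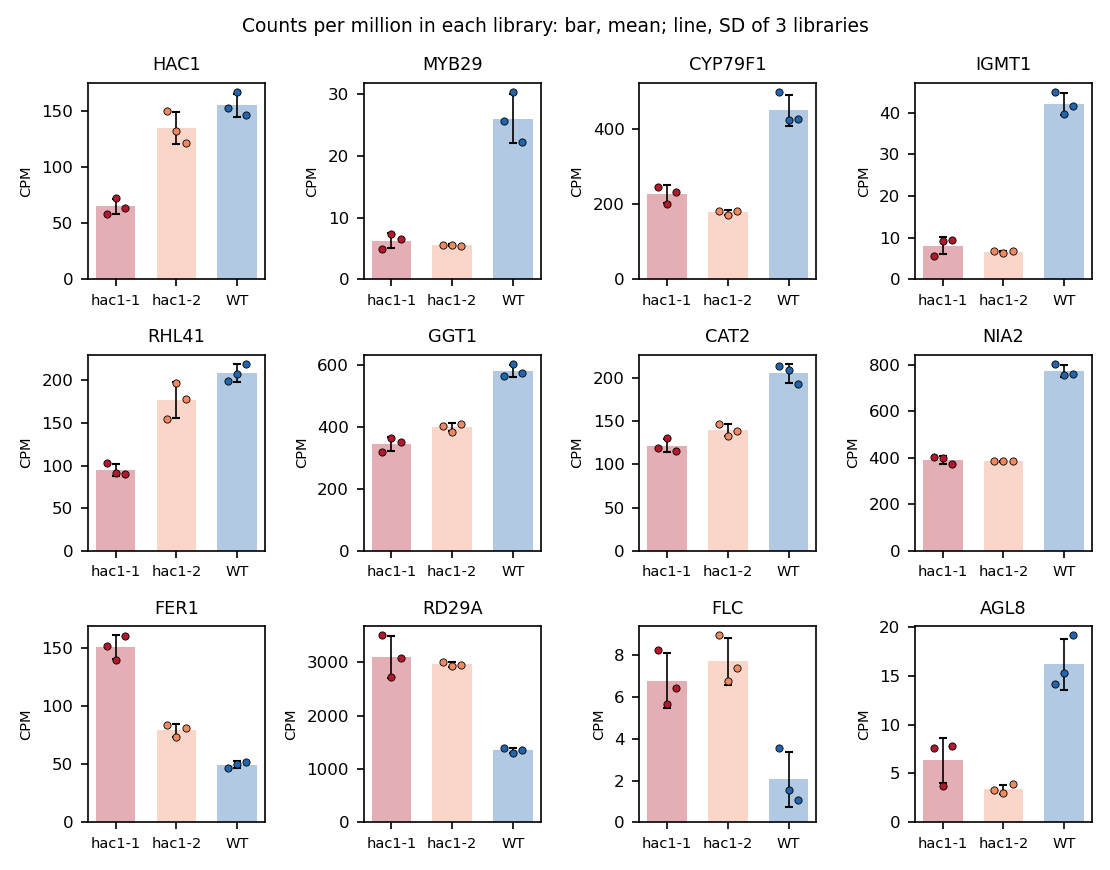
Level in CPM (vertical axes start at 0) of 12 genes in hac1-1, hac1-2 and WT, with a point per library, bars at the group mean and error bars of 1 SD (n = 3). HAC1 averages 65.01 CPM in hac1-1 and 155 CPM in WT, and of the other genes FER1, RD29A and FLC are higher in hac1-1.

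**Figure D4:**
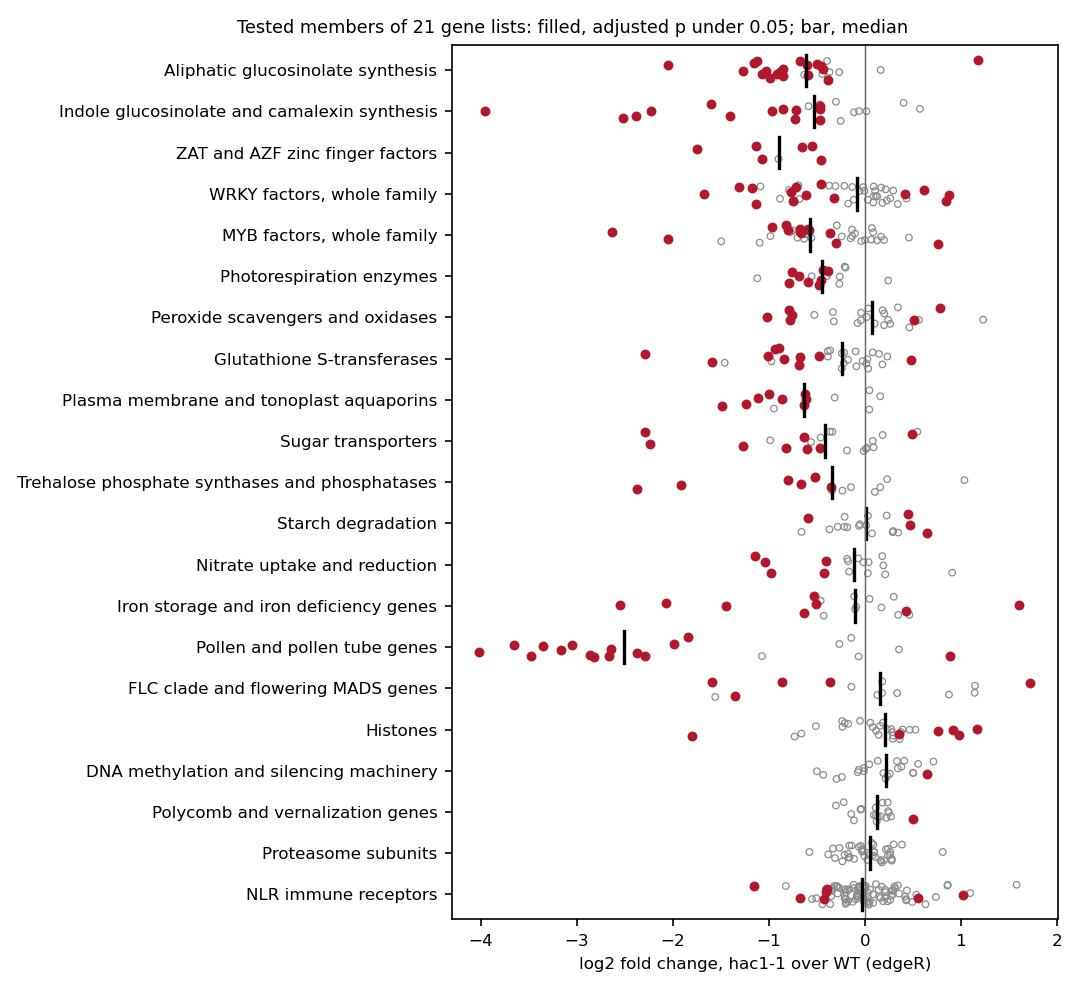
Log2 fold change of hac1-1 against WT for tested genes of 21 lists, with filled points for genes past an edgeR adjusted p of 0.05, a bar at the list median, and genes with 0 counts in either group left out. The medians of the aliphatic (-0.62) and indole (-0.53) glucosinolate lists lie below the median of all genes (0.02).

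Promoter sequences are shown for 3 water-stress genes that were higher and 3 regulatory genes that were lower in hac1-1 than in WT, so that the known stress elements before them can be read beside their levels. RD29A (AT5G52310), a stress gene whose promoter defined the dehydration-responsive element, had 3505, 2716 and 3078 CPM in hac1-1 against 1386, 1308 and 1352 CPM in WT (log2 fold change 1.2005, SE 0.10, edgeR adjusted p = 2.1e-09). COR15A (AT2G42540), a chloroplast-targeted cold-regulated gene, had 260.0, 302 and 299 CPM in hac1-1 against 174, 172 and 184 CPM in WT (log2 fold change 0.70, SE 0.10, edgeR adjusted p = 1.8e-05). KIN1 (AT5G15960), a small cold-induced gene, had 29.9, 27.4 and 33.5 CPM in hac1-1 against 11.2, 12.6 and 13.6 CPM in WT (log2 fold change 1.27, SE 0.17, edgeR adjusted p = 3.1e-06). KIN1 has a near-identical copy over 59.8% of its transcript, KIN2 (AT5G15970), and reads may be split between them. KIN2 averaged 1166 CPM in hac1-1 and 770 CPM in WT (log2 fold change 0.60, edgeR adjusted p = 0.04). Its hac1-1 and WT libraries overlapped, and its call was not stable and did not pass with DESeq2 (adjusted p = 0.267). MYB15 (AT3G23250), a stress MYB factor gene, had 5.31, 4.59 and 3.80 CPM in hac1-1 against 27.6, 33.2 and 25.5 CPM in WT (log2 fold change -2.64, SE 0.24, edgeR adjusted p = 9.1e-09). CML37 (AT5G42380), a calmodulin-like calcium sensor gene, had 96.2, 92.3 and 94.7 CPM in hac1-1 against 201, 223 and 215 CPM in WT, and ERF022 (AT1G33760), an AP2-type factor gene, had 2.79, 1.53 and 3.98 CPM in hac1-1 against 12.7, 24.1 and 19.0 CPM in WT.

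The 250 bases before each annotated start were read from the RefSeq TAIR10.1 genome, and none overlaps another gene. Each is printed 5′ to 3′ on the strand of its gene, with capitals at every match on either strand to CCGAC (the dehydration-responsive element core), ACGTG (the abscisic acid response element core), TTGAC (the W-box core bound by WRKY factors) or CGCGT (the rapid stress response element core). The RD29A window is chr5:21240467-21240716 (plus strand), COR15A is chr2:17712331-17712580 (minus strand), KIN1 is chr5:5209467-5209716 (plus strand), ERF022 is chr1:12237297-12237546 (plus strand), MYB15 is chr3:8308959-8309208 (plus strand) and CML37 is chr5:16943821-16944070 (minus strand).
RD29A: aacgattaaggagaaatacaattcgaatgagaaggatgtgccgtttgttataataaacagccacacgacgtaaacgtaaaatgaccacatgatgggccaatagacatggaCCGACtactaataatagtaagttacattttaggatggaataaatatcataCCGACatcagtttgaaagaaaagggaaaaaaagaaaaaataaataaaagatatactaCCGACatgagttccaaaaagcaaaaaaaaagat
COR15A: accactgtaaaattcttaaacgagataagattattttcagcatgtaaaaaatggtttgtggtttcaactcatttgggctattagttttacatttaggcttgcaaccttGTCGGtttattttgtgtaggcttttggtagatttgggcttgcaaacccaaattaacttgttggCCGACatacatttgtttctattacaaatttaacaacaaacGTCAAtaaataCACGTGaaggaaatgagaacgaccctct
KIN1: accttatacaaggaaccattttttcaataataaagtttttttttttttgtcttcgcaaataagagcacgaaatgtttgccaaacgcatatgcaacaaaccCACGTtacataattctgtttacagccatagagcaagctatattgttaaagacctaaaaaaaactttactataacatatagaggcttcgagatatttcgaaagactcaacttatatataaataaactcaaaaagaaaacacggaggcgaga
ERF022: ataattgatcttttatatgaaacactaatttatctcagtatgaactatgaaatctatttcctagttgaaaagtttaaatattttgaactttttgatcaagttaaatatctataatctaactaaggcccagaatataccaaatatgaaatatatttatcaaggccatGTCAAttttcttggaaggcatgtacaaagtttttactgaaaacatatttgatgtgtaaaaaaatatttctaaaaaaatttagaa
MYB15: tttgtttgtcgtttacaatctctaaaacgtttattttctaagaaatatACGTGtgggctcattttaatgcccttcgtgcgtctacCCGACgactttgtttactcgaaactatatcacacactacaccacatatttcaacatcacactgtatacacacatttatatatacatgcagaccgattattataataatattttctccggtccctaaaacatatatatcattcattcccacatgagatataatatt
CML37: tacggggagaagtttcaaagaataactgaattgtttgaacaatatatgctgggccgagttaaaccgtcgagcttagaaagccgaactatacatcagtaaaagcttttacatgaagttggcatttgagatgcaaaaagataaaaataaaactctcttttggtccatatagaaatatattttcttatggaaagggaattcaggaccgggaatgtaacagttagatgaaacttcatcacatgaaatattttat

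The RD29A window held 3 CCGAC matches, COR15A held 2 and MYB15 held 1, while KIN1, ERF022 and CML37 held 0. ACGTG was matched 2 times in COR15A, where a palindromic site is read on both strands, and 1 time in KIN1 and in MYB15. TTGAC was matched 1 time in COR15A and in ERF022. Of the 250-base windows of 27443 protein-coding genes, 12.0% held CCGAC, 22.9% held ACGTG, 44.9% held TTGAC and 6.87% held CGCGT. These matches describe letters in a window and are not binding sites.

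**Figure D5:**
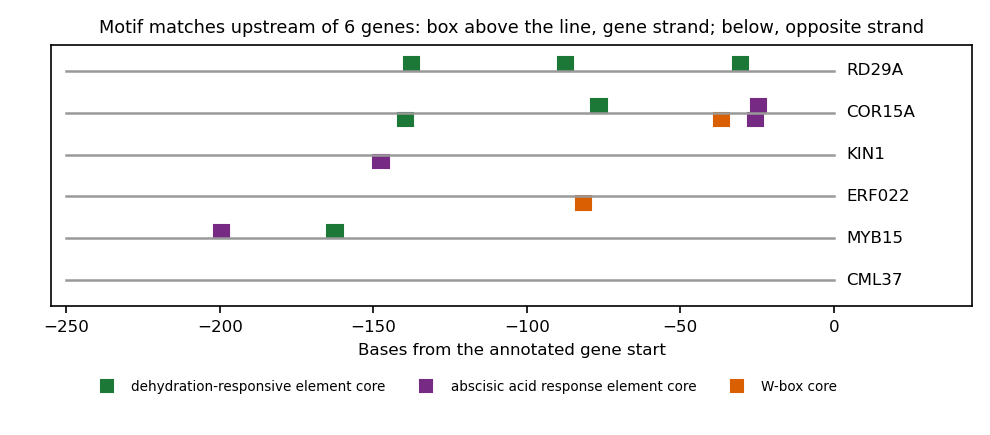
Positions of the motif matches in the 6 promoter windows, as bases from the annotated start along the horizontal axis, with 1 row per gene. RD29A carries 3 CCGAC matches and CML37 carries no match.

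Stress transcription factor families were lower in part. ZAT proteins are zinc finger repressors that respond within minutes to cold, light and oxidative stress, and of 7 tested ZAT and AZF genes 6 were stably lower and 0 higher, with a median log2 fold change of -0.90. ZAT7 (AT3G46090) had 21.8, 19.9 and 15.9 CPM in hac1-1 against 57.8, 63.9 and 72.6 CPM in WT (log2 fold change -1.75, SE 0.15, edgeR adjusted p = 1.3e-09). RHL41 (AT5G59820), also known as ZAT12, had 103, 91.6 and 89.7 CPM in hac1-1 against 199, 207 and 219 CPM in WT (log2 fold change -1.13, SE 0.11, edgeR adjusted p = 3.3e-08). Neither gene overlapped between the groups.

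WRKY factors bind W boxes in defence and senescence genes. Of 44 tested members of the whole family, 10 were lower and 4 higher, and leaving out single libraries left 9 lower in every case and 1 to 4 higher, with 1 higher without WT replicate 3 and 2 without WT replicate 1 or hac1-1 replicate 2. WRKY46 (AT2G46400) had 19.5, 18.2 and 13.7 CPM in hac1-1 against 54.5, 57.3 and 53.6 CPM in WT (log2 fold change -1.68, SE 0.17, edgeR adjusted p = 2.9e-08). WRKY22 (AT4G01250) had 54.5, 39.7 and 46.5 CPM in hac1-1 against 124, 107 and 120 CPM in WT (log2 fold change -1.32, SE 0.13, edgeR adjusted p = 1.9e-08). Both were fully separated between the groups. WRKY70 (AT3G56400), which acts downstream of salicylic acid, moved the other way, with 125, 100.5 and 148 CPM in hac1-1, 68.3, 57.5 and 60.9 CPM in hac1-2, and 84.6, 76.4 and 82.96 CPM in WT (log2 fold change against WT 0.61, SE 0.13, edgeR adjusted p = 0.0011).

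Of 38 tested MYB factors, 12 were lower, 7 of them stably, and 1 was higher, not stably, with a median of -0.57, and the glucosinolate regulators above are among them. Of 46 tested NAC factors, 9 were lower and 4 higher, with 5 lower without WT replicate 3 or without hac1-1 replicate 3. The 4 higher NAC genes, 1 of them stable, became 2 without WT replicate 1, 2 or 3 or hac1-1 replicate 1. NAC036 (AT2G17040) had 542, 531 and 574 CPM in hac1-1 against 855, 780.5 and 940.1 CPM in WT (log2 fold change -0.65, SE 0.10, edgeR adjusted p = 5.8e-05). Of 11 CAF1 deadenylase and tandem zinc finger genes, which act on messenger RNA stability, 4 were lower and 0 higher. SZF1 (AT3G55980), a salt-inducible zinc finger gene, had 1671, 1670.4 and 1679 CPM in hac1-1 against 2192, 2062 and 2341 CPM in WT, a 1.31-fold lower level with closely spaced replicates.

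NLR proteins detect pathogen effectors inside the cell, and pattern-recognition receptors sense microbial and damage signals at its surface. Of 97 NLR receptor genes tested, 5 were lower and 2 higher, 3 of the lower and 0 of the higher stably, and 3 were lower without WT replicate 3. These were smaller shares than the 9.12% lower and 3.51% higher among all genes tested. Of 20 pattern-recognition receptors and partners, 4 were lower and 0 higher, and of 25 cysteine-rich receptor-like kinases 6 were lower and 3 higher. PEPR1 (AT1G73080), the receptor of the damage peptide Pep1, had 42.5, 47.0 and 35.8 CPM in hac1-1 against 56.2, 76.5 and 61.0 CPM in WT (log2 fold change -0.62, SE 0.15, edgeR adjusted p = 0.0044). For PEPR1, limma on FPKM values gave adjusted p of 0.0599 to 0.0674. SOBIR1 (AT2G31880), a co-receptor kinase of receptor-like proteins, had 829, 637 and 729 CPM in hac1-1 against 1047, 951 and 1005 CPM in WT. CRK4 (AT3G45860), a cysteine-rich kinase gene, had 47.8, 51.0 and 44.2 CPM in hac1-1 against 78.2, 86.9 and 76.3 CPM in WT.

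Photorespiration recycles the product of the oxygenase reaction of Rubisco through chloroplasts, peroxisomes and mitochondria. Of 16 tested genes, 8 were lower in hac1-1, 7 stably, and 0 higher, with a median log2 fold change of -0.44. GLU1 (AT5G04140), the ferredoxin-dependent glutamate synthase gene that reassimilates ammonium, had 399, 375 and 378 CPM in hac1-1 against 701, 604 and 686 CPM in WT (log2 fold change -0.79, SE 0.10, edgeR adjusted p = 1.9e-06). GGT1 (AT1G23310), a peroxisomal glutamate:glyoxylate aminotransferase gene, had 319, 364 and 352 CPM in hac1-1 against 566, 604 and 575 CPM in WT (log2 fold change -0.75, SE 0.10, edgeR adjusted p = 3.8e-06). SHM1 (AT4G37930), the mitochondrial serine hydroxymethyltransferase gene, had 177, 147 and 174 CPM in hac1-1 against 290.1, 246 and 269 CPM in WT. For all 3 enzymes the hac1-1 libraries lay below the WT libraries.

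Peroxide is a by-product of photorespiration and a signal in defence. Among 24 tested scavengers and oxidases, 4 were lower and 2 higher, all stably. CAT2 (AT4G35090), the leaf peroxisomal catalase gene, had 119, 130.3 and 115 CPM in hac1-1 against 214, 209 and 193 CPM in WT (log2 fold change -0.76, SE 0.11, edgeR adjusted p = 7.4e-06). RBOHD (AT5G47910), the plasma membrane NADPH oxidase gene of immune bursts, had 75.8, 105 and 91.9 CPM in hac1-1 against 172, 206 and 174 CPM in WT (log2 fold change -1.02, SE 0.12, edgeR adjusted p = 5.7e-07). SAPX (AT4G08390), a chloroplast stromal ascorbate peroxidase gene, was higher, with 70.7, 63.7 and 77.9 CPM in hac1-1 against 50.6, 51.4 and 46.8 CPM in WT. Of 30 glutathione S-transferase genes, 9 were lower and 1 higher. GSTF6 (AT1G02930), of the phi class, had 49.5, 63.1 and 47.9 CPM in hac1-1 against 97.3, 118 and 91.9 CPM in WT (log2 fold change -0.94, SE 0.13, edgeR adjusted p = 1.2e-05), and DHAR1 (AT1G19570), a dehydroascorbate reductase gene, had 183, 191 and 174 CPM in hac1-1 against 151, 125 and 118 CPM in WT (log2 fold change 0.48, SE 0.11, edgeR adjusted p = 0.0034).

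Aquaporins carry water across the plasma membrane (PIP) and the tonoplast (TIP). Of 13 tested genes, 8 were lower in hac1-1, 6 stably, and 0 higher, with a median log2 fold change of -0.63. PIP1C (AT1G01620) had 24.3, 27.7 and 22.1 CPM in hac1-1 against 57.5, 58.2 and 59.6 CPM in WT (log2 fold change -1.24, SE 0.13, edgeR adjusted p = 1.4e-07). TIP2 (AT3G26520) had 119, 125 and 122 CPM in hac1-1 against 274, 229.7 and 226 CPM in WT (log2 fold change -0.995, SE 0.11, edgeR adjusted p = 1.3e-07). For both genes every WT library was above every hac1-1 library.

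Among 22 sugar transporters, 7 were lower and 1 higher, with a median log2 fold change of -0.41. SUC1 (AT1G71880), a sucrose proton symporter gene, had 46.3, 44.6 and 38.2 CPM in hac1-1 against 101, 97.6 and 112 CPM in WT (log2 fold change -1.26, SE 0.12, edgeR adjusted p = 2.1e-08). STP1 (AT1G11260), a monosaccharide symporter gene, had 206, 189 and 196 CPM in hac1-1 against 384, 317 and 343 CPM in WT. TMT2 (AT4G35300), which loads sugars into the vacuole, was higher, with 59.7, 57.1 and 58.2 CPM in hac1-1 against 42.2, 37.6 and 44.6 CPM in WT (log2 fold change 0.49, SE 0.12, edgeR adjusted p = 0.0061). Trehalose 6-phosphate is a signal of sucrose supply, and of 14 tested synthase and phosphatase genes 6 were lower and 0 higher, and 4 of the 6 were stable. TPS9 (AT1G23870) had 42.9, 40.0 and 33.4 CPM in hac1-1 against 70.8, 66.3 and 66.2 CPM in WT (log2 fold change -0.80, SE 0.13, edgeR adjusted p = 5e-05).

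Of 19 starch degradation genes, 15 were not called, 3 were higher, 2 of them stably, and 1 was stably lower. The median log2 fold change of this list was 0.01. PHS1 (AT3G29320), the plastid alpha-glucan phosphorylase gene, had 132, 133 and 138 CPM in hac1-1 against 81.3, 90.2 and 85.6 CPM in WT (log2 fold change 0.65, SE 0.11, edgeR adjusted p = 8.2e-05). CT-BMY (AT4G17090), a chloroplast beta-amylase gene, had 312, 313 and 324 CPM in hac1-1 against 472, 466 and 489.9 CPM in WT (log2 fold change -0.59, SE 0.10, edgeR adjusted p = 0.00011). Each gene was fully separated between the groups, in opposite directions.

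Nitrate reductase, which makes nitrite from nitrate, was lower in both of its genes. NIA2 (AT1G37130) had 404, 398 and 373 CPM in hac1-1 against 805, 757 and 761 CPM in WT (log2 fold change -0.98, SE 0.10, edgeR adjusted p = 3.3e-08). NIA1 (AT1G77760) had 55.3, 55.4 and 51.2 CPM in hac1-1 against 108, 109 and 115 CPM in WT (log2 fold change -1.04, SE 0.11, edgeR adjusted p = 9.1e-08). Of 16 nitrate uptake and reduction genes 5 were lower and 0 higher, with 2 lower without WT replicate 1, 4 without WT replicate 2 and 3 without any other single library, while NIR1 (AT2G15620), the nitrite reductase gene of the next step, named after its values were seen, had a log2 fold change of -0.02 that did not pass.

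Of 18 iron genes, 6 were lower, 5 of them stably, and 2 were higher, 1 of them stably. FER1 (AT5G01600), which encodes the iron storage protein ferritin, had 152, 139.7 and 160.0 CPM in hac1-1, 83.9, 73.2 and 81.0 CPM in hac1-2, and 46.5, 50.04 and 52.2 CPM in WT. The 3 genotypes did not overlap, and the log2 fold change of hac1-1 against WT was 1.602 (SE 0.11, edgeR adjusted p = 7.3e-11). FER1 shares 1334 bases with the antisense entry AT5G01595, which had its own counts and averaged 17.2 CPM in hac1-1 and 12.98 CPM in WT. The strand of counting was not given, and whether reads were shared between these entries was not tested. SUFE2 (AT1G67810), an activator of iron-sulfur cluster assembly, had 11.8, 9.65 and 11.2 CPM in hac1-1 against 47.6, 39.8 and 49.5 CPM in WT (log2 fold change -2.07, SE 0.18, edgeR adjusted p = 4.2e-09). NAS1 (AT5G04950), a nicotianamine synthase gene for metal chelation, had 8.62, 12.6 and 7.60 CPM in hac1-1 against 25.5, 30.8 and 22.6 CPM in WT. Of 16 phosphate starvation genes, 3 were lower and 1 higher, and PHO1 (AT3G23430), a phosphate exporter gene, had 3.58, 4.29 and 2.25 CPM in hac1-1 against 7.08, 9.003 and 11.7 CPM in WT (log2 fold change -1.45, SE 0.32, edgeR adjusted p = 0.0020).

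Cell wall genes of the families that modify pectin and xyloglucan were lower in hac1-1 in part, with 16 pectin and 6 xyloglucan genes tested but not called. As in the pollen list, genes with few counts could pass the filter through a single genotype. Of 33 pectin methylesterase and inhibitor genes, 16 were lower, 13 stably, and 1 was higher, not stably, with a median log2 fold change of -0.74, and 2 of the 16 are on the pollen list. PME1 (AT1G53840) had 71.6, 71.1 and 69.6 CPM in hac1-1 against 163, 165 and 169 CPM in WT (log2 fold change -1.23, SE 0.11, edgeR adjusted p = 9.1e-09). AT5G62360, an inhibitor-type gene, had 5.31, 3.83 and 5.01 CPM in hac1-1 against 21.96, 34.8 and 24.4 CPM in WT (log2 fold change -2.51, SE 0.26, edgeR adjusted p = 4.8e-08). Both genes separated the groups in every library. Of 10 xyloglucan endotransglucosylase genes, 4 were lower and 0 higher, and TCH4 (AT5G57560), a touch-induced member, had 152, 119 and 154 CPM in hac1-1 against 568, 408 and 485 CPM in WT (log2 fold change -1.78, SE 0.13, edgeR adjusted p = 2.5e-10).

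Cytochrome P450 and glycosyltransferase families, which make and modify hormones and defence compounds, were mostly lower where called. Of 104 P450 genes, 27 were lower, 17 of them stably, and 2 were higher, 1 of them stably, with a median log2 fold change of -0.23. The lower P450 genes include glucosinolate genes, such as CYP79F1 above, so this count is not independent of the glucosinolate lists. CYP71B13 (AT5G25140) had 18.4, 18.2 and 14.2 CPM in hac1-1 against 39.5, 50.9 and 48.3 CPM in WT (log2 fold change -1.44, SE 0.16, edgeR adjusted p = 2.2e-07). Of 36 UDP-glycosyltransferases, 13 were lower and 1 higher, and 8 were lower without WT replicate 3. UGT71B6 (AT3G21780), an abscisic acid glucosyltransferase gene, had 50.1, 49.8 and 46.7 CPM in hac1-1 against 126, 93.3 and 115 CPM in WT (log2 fold change -1.19, SE 0.12, edgeR adjusted p = 5.1e-08).

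Hormone genes were counted by family. Of 20 SAUR genes, which respond early to auxin, 7 were lower in hac1-1, 3 of them stably, and 0 were higher, with a median log2 fold change of -0.54. The count of lower SAUR genes was 4 without WT replicate 1 or hac1-1 replicate 2. Of 22 genes of the Aux/IAA and GH3 families, 3 were lower, 2 of them stably, and 2 were higher, 1 of them stably. The stable lower genes were IAA14 and the GH3 family gene PBS3 (AT5G13320), and not every GH3 gene acts on auxin. IAA14 (AT4G14550) had 1.33, 1.68 and 1.21 CPM in hac1-1 against 7.37, 6.41 and 6.73 CPM in WT (log2 fold change -2.27, SE 0.40, edgeR adjusted p = 0.00022). SHY2 (AT1G04240), another Aux/IAA repressor gene, had 58.0, 47.5 and 55.5 CPM in hac1-1 against 31.2, 32.2 and 32.8 CPM in WT (log2 fold change 0.74, SE 0.13, edgeR adjusted p = 0.00012), and it overlaps a gene on the opposite strand. GA2OX6 (AT1G02400), a gibberellin inactivating enzyme gene, had 3.58, 8.27 and 6.74 CPM in hac1-1 against 14.2, 21.8 and 16.0 CPM in WT (log2 fold change -1.49, SE 0.28, edgeR adjusted p = 0.00034). Of 13 gibberellin genes 2 were lower, 1 of them stably, and 0 were higher. Of 16 brassinosteroid genes 4 were lower, none of the 4 stably, and 0 were higher.

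FLC (AT5G10140), the MADS-box repressor of flowering, was higher in hac1-1, with 8.23, 5.67 and 6.39 CPM against 3.54, 1.56 and 1.08 CPM in WT. The groups did not overlap, and the log2 fold change lay at 1.72 (SE 0.37, edgeR adjusted p = 0.0017). AGL8 (AT5G60910), also known as FRUITFULL, a promoter of flowering, had 7.56, 3.68 and 7.78 CPM in hac1-1 against 14.2, 15.2 and 19.1 CPM in WT (log2 fold change -1.35, SE 0.26, edgeR adjusted p = 0.00059). AGL42 (AT5G62165), a relative of the floral integrator SOC1, had 3.98, 7.96 and 1.901 CPM in hac1-1 against 14.4, 15.1 and 12.7 CPM in WT (log2 fold change -1.59, SE 0.31, edgeR adjusted p = 0.00065). Of the 14 tested flowering MADS genes, 4 were lower and 1 higher, and 2 were lower without WT replicate 1, WT replicate 3 or hac1-1 replicate 3.

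None of 43 proteasome subunits, the core machinery of protein degradation, passed the edgeR test, with 3 at an unadjusted p under 0.05 and 0 called by DESeq2 or limma. Of 19 Polycomb and vernalization genes 1 was higher, not stably, and 0 lower. Of 23 DNA methylation and silencing genes the 1 called was DML1 (AT2G36490), the DNA demethylase ROS1, with 34.0, 40.7 and 29.2 CPM in hac1-1 against 22.2, 22.7 and 21.4 CPM in WT (log2 fold change 0.65, SE 0.15, edgeR adjusted p = 0.0033). Of 30 histone genes 5 were higher and 1 lower, with 3 higher without WT replicate 1, WT replicate 2, hac1-1 replicate 1 or hac1-1 replicate 3, and 1 without WT replicate 3. The stable call was H2AXA (AT1G08880), a histone variant gene of DNA repair, with 27.1, 32.8 and 31.5 CPM in hac1-1 against 14.7, 17.8 and 15.7 CPM in WT (log2 fold change 0.92, SE 0.16, edgeR adjusted p = 0.00012). Of 57 heat shock protein and factor genes, 5 were higher and 2 lower, with 3 higher without WT replicate 2 or WT replicate 3. Both directions together lay near the 12.6% called among all genes tested. HSFA6A (AT5G43840), a heat shock factor gene induced by drought and salt, had 39.4, 39.4 and 35.6 CPM in hac1-1 against 18.4, 16.6 and 19.5 CPM in WT (log2 fold change 1.06, SE 0.15, edgeR adjusted p = 8.5e-06).

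AT2G09187, annotated as a pseudogene (chromosome 2, 3639603 to 3646073, minus strand, TAIR10.1), had the largest rise. It was counted at 612, 811 and 828 CPM in hac1-1, at 1.79, 1.797 and 2.96 CPM in hac1-2 and at 1.42, 2.25 and 2.16 CPM in WT. The high level was found in all 3 hac1-1 libraries and in no other library. The level was 384-fold higher than in WT (log2 fold change 8.58, SE 0.20, edgeR adjusted p = 5.3e-22). Among 3 entries with at least 90% identity over 76.5 to 78.7% of its transcript, AT2G10660 and AT5G29975 were at 0 in hac1-1 and AT2G14180 averaged 0.395 CPM in hac1-1 and 0 in WT.

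Of 186 tested pseudogenes and transposable element genes, 12 were higher and 10 lower, and 7 were higher and 9 lower without WT replicate 3. Both directions together lay near the 12.6% called among all genes tested. AT5G35935, a pseudogene, had 10.3, 7.198 and 11.1 CPM in hac1-1, 9.62, 11.3 and 11.2 CPM in hac1-2, and 0.425, 1.21 and 0.601 CPM in WT (log2 fold change of hac1-1 against WT 3.70, SE 0.37, edgeR adjusted p = 4e-08). Of 198 long noncoding and antisense RNA genes, 7 were higher and 9 lower, and the higher count was 2 without WT replicate 1, 3 without WT replicate 3 and 12, against 8 lower, without hac1-1 replicate 2. The calls of this list were together a smaller share than the 12.6% over all genes. GUT15 (AT2G18440), a noncoding RNA gene, had 574, 565 and 630.0 CPM in hac1-1 against 367, 347 and 417 CPM in WT (log2 fold change 0.65, SE 0.11, edgeR adjusted p = 6.9e-05).

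Of the 2092 called genes, 8 had 0 counts in every hac1-1 library, and 0 had 0 counts in every WT library. A gene at 0 in a group passed the filter on low counts only through another genotype, so these counts depend on the filter. How many tested genes had 0 counts in either group is not given here. YLS9 (AT2G35980), a defence-induced gene of the NDR1 family, had 82 counts in WT and 0 in hac1-1, which is at least 26.6-fold lower. The pseudogene AT2G15510 had 55 WT counts and the protein-coding gene AT3G01345 had 47, and both had 0 counts in hac1-1 and in hac1-2, at least 17.0-fold and 14.8-fold lower in hac1-1 than in WT.

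Cell type markers were checked beside these results. Of the 4 mesophyll markers 3 were lower in hac1-1, 2 of them stably. The list summed to 1737, 1955 and 1727 CPM in hac1-1 and to 2226, 2157 and 2254 CPM in WT. In hac1-2 it summed to 2651, 2680 and 2683 CPM, above WT. Of 6 phloem markers 3 were lower, among them SUC2 (AT1G22710), the companion cell sucrose transporter gene, and the list summed to 529, 411 and 515 CPM in hac1-1 and to 783, 672 and 718 CPM in WT. None of the 6 guard cell, 4 epidermis, 2 root or 1 trichome markers tested was called by edgeR, DESeq2 or limma, with 1 guard cell and 1 epidermis marker at an unadjusted p under 0.05, and none of 9 xylem or 6 meristem markers passed the low-count filter. The part of mesophyll and phloem markers in the other results was not tested. Of the genes named above, STP1, GTR1, SOBIR1, UGT71B6, CAT2, GLU1, PHS1, LUP1, TMT2, ACA9, PSBR and AT2G27080 overlap an entry on the opposite strand by more than a few bases. The longest of these overlaps was 1616 bases in UGT71B6, whose opposite entry averaged 0.859 CPM in hac1-1 and 0.461 CPM in WT. RECA1, which shares 51 bases with PSBR, averaged 64.6 CPM in hac1-1 and 53.9 CPM in WT. Reads of both strands may have been counted together, which was not tested.

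The second insertion line was set beside hac1-1 for genes that differed between the mutants. Directly compared, 470 genes passed an edgeR adjusted p of 0.05 between hac1-1 and hac1-2 (2.84% of genes tested), 162 higher (0.978%) and 308 lower (1.86%) in hac1-1. BGAL11 had 1.06, 2.60 and 0.864 CPM in hac1-1 and 6.73, 6.24 and 9.95 CPM in hac1-2, a log2 difference of -2.32 (edgeR adjusted p = 0.00017). AT1G20920, an ATPase gene of the P-loop class, had 847, 849 and 1145 CPM in hac1-1, 599, 701 and 487 CPM in hac1-2, and 554, 561 and 657 CPM in WT. Its hac1-1 values were above all others, by 0.67 on the log2 scale against hac1-2 (edgeR adjusted p = 0.0037) and by 0.68 against WT (edgeR adjusted p = 0.00046). The genes AIG1, MYB29, MYB15 and NIA2 did not pass the test between the mutants, with log2 differences of hac1-1 against hac1-2 of -0.29, 0.17, 0.36 and 0.02.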

How the data were processed

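Libraries came from total RNA of full leaves and were prepared by the BrAD-seq method (breath adapter directional sequencing), per the labels. The authors deposited raw read counts per gene and, per the labels, a filtered table of FPKM values. The genome build was TAIR10 per the submitters' processing notes. How reads were aligned and counted, on which strand and with which annotation, is not given in the sources used here.

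All 9 libraries entered 1 edgeR 4.0.16 fit (R 4.3.3) after filterByExpr (minimum count 10) and TMM scaling, followed by quasi-likelihood tests of hac1-1 minus WT and of hac1-1 minus hac1-2 with Benjamini-Hochberg adjustment at 0.05. Floors, and folds given as at least a value, cover counting error only. Standard errors came from the edgeR fits and include the spread between libraries. The steps were tested on simulated data. Coordinates and promoters came from TAIR10.1, which held 32835 of the 33323 gene identifiers, and copies were sought with BLAST 2.17.0 at 90% identity over 50% of a transcript.

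The comparison, the members and the gene lists were chosen with earlier results of these data known, and 2 pollen-related lists were written after values were seen. Named were HAC1, SAG12, the 12 largest stable rises and falls by fold (mean of at least 5 CPM, no overlap), the 6 largest by CPM, the 5 of smallest adjusted p, up to 4 stable calls per list with any minority direction, called genes with 0 counts in a group, the neighbours of HAC1 and the genes of the 6 promoters. Only some of the genes this rule picks are described. IGMT2, IGMT4, KIN2, NIR1, VLN5, SEP1, SOT17, SOT18, the uncalled pollen genes and the floral organ genes were named after their values were seen. Alternatives were DESeq2 1.42.0, limma 3.58.1 on log2(FPKM + 1) and log2(FPKM + 0.1), other scalings and filters, a replicate block, removal of ribosomal RNA genes, and leaving out each library.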

Additional observations from a re-analysis of the deposited data

Results flagged for a closer look

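These results differed between the insertion lines, by an edgeR test of hac1-1 minus hac1-2 with an adjusted p under 0.05. The values are log2 differences. hac1-1 was set directly against hac1-2, with the spread taken from all 9 libraries.

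HAC1 itself was at -1.05 and its neighbours AT1G78995 and PSBR at -1.83 and -0.53. The pollen-related genes ACA9, AGP11, BCP1, PRK2A and VGD1 were at -5.57, -1.78, -1.86, -1.75 and -1.46, and the beta-galactosidase gene BGAL11 was at -2.32. ACA9 and YLS9 (-5.39) had 0 counts in hac1-1, so their fitted values depend on the prior count and are no bounds.

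Lower in hac1-1 than in hac1-2 were also ERF022 at -1.58, RHL41 at -0.90, ZAT7 at -0.74, TCH4 at -0.81, WRKY22 at -0.54, AT2G27080 at -1.10, SAG13 at -1.79, IGMT2 at -1.97, AT5G62360 at -1.39, GTR1 at -0.43, CT-BMY at -0.42, DIC2 at -0.39, NAC036 at -0.38, PME1 at -0.51, TIP2 at -0.38, RCA at -0.49, SHM1 at -0.56, AT2G45180 at -0.76 and GRP5 at -0.81.

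Higher in hac1-1 than in hac1-2 were WRKY70 at 1.00, FER1 at 0.92, HSFA6A at 0.85, AT1G20920 at 0.67, SAPX at 0.43 and XERO1 at 1.39. The pseudogene AT2G09187 was at 8.43.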

How the results depend on the processing

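The direction of HAC1 and its call held in all alternatives, with log2 fold changes of -1.34 to -1.14. The 2092 genes called between hac1-1 and WT became 1618 to 1702 with limma on FPKM values, 2371 without the low-count filter, 1755 with a mean of at least 5 CPM, 2098 with DESeq2, and 1560 to 2042 when single libraries were left out. Of the DESeq2 calls, 2022 were among the 2092. The 582 higher calls ranged over 357 to 615 when single libraries were left out. The 470 genes called between hac1-1 and hac1-2 became 721 without the low-count filter, 252, 241 and 260 with limma on FPKM values (pseudocounts 1 and 0.1, and a mean FPKM of at least 1), and 204 to 475 when single libraries were left out, with 240 without hac1-1 replicate 3, 249 without hac1-2 replicate 2 and 204 without hac1-2 replicate 3. The cause of these shifts was not tested. No called gene named here changed its sign in these alternatives. The balance of calls turned for pseudogenes and transposable element genes without WT replicate 3 (7 higher, 9 lower). It also turned for noncoding RNA genes without hac1-1 replicate 2 (12 higher, 8 lower), with library size only (9 and 8), without the low-count filter (11 and 10) and with a replicate block (11 and 10), and for calcium-dependent protein kinases among genes averaging 5 CPM or more (1 and 0). Of the values for single genes and lists under the alternatives, 5423 were classed as unchanged. For a gene this means the same direction and call, and for a list only a count that was equal or within 1.5 times. Of the rest, 262 list counts moved by more than 1.5 times and 75 calls of single genes were lost.

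The replicate numbers were taken as names in the main fit. Same-numbered hac1-1 and WT libraries deviated from their group means with correlations of 0.0938, 0.179 and 0.0647. Different-numbered hac1-1 and WT libraries had correlations of -0.122 to 0.045. A replicate block gave 2511 calls between hac1-1 and WT and 715 between hac1-1 and hac1-2. Each hac1-1 and WT library correlated best with its own number, as a hint from the data and not the design. Counts of a few reads per library limit the pollen genes and the genes at 0.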

Other observations

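Some families that stand outside the groups above held calls of both signs in hac1-1 against WT. Of 21 lipid transfer protein genes, 5 were lower and 3 higher. AT2G45180 had 144, 137 and 122 CPM in hac1-1 against 290.0, 407 and 348 CPM in WT (log2 fold change -1.37, SE 0.12, edgeR adjusted p = 4.6e-09). Of 29 glycine-rich protein genes, 7 were lower and 3 higher, and GRP5 had 24.4, 17.3 and 21.6 CPM in hac1-1 against 8.07, 7.62 and 10.099 CPM in WT (log2 fold change 1.28, SE 0.20, edgeR adjusted p = 5e-05). Of 24 cuticular wax and cutin genes, 3 were higher and 1 lower, and CER1, which is needed to make wax alkanes, had 17.8, 25.4 and 26.4 CPM in hac1-1 against 9.21, 14.2 and 10.9 CPM in WT (log2 fold change 1.02, SE 0.20, edgeR adjusted p = 0.000499). The 3 higher wax and cutin genes became 1 without WT replicate 3. For each of the genes named here the groups did not overlap.

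Among kinases, SIP4, a CIPK that works with CBL calcium sensors in salt tolerance, had 75.1, 61.0 and 64.1 CPM in hac1-1 against 153, 113 and 151 CPM in WT (log2 fold change -1.06, SE 0.12, edgeR adjusted p = 5.35e-07). An entry on the opposite strand shares 1823 bases with SIP4 and averaged 0.891 CPM in hac1-1 and 1.92 CPM in WT. Of 28 CBL and CIPK genes, 6 were lower and 3 higher, with 3 lower without WT replicate 3 or without hac1-1 replicate 2, and 1 higher without WT replicate 2 or without hac1-1 replicate 3. Of 33 MAP kinase cascade genes, 2 were lower and 2 higher, and of 26 calcium-dependent protein kinase genes 3 were lower and 1 higher. Among all genes tested, 12.6% were called in either direction. No higher call in either family was stable when single libraries were left out.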
